A study of Mus musculus with 19 samples.

Results

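The 10 T cell genes followed across all 19 lung arrays were Cd3d, Cd3e, Cd3g, Cd4, Cd8a, Lck, Zap70, Lat, Cd5 and Cd28. They were chosen by name as parts of the T cell receptor machinery, and each was found through the transcript that its array probes target. They are 10 of the 33269 genes or unnamed transcripts on the array. Of the 10, 9 had a probe and 8 were tested, which took a lung signal well above background on 4 or more arrays. No probe was matched to Cd8a, a coreceptor chain of cytotoxic T cells, and it was not analysed here. The Cd28 probe was well above background on 0 of 19 arrays.

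The series measured lung RNA of male MutaMouse animals gavaged with benzo(a)pyrene (BaP), a carcinogen of tar and smoke. All mice were of transgenic strain 40.6, which carries a reporter for scoring mutations, were 25 weeks old by label, and were dosed every day for 28 days, with lungs collected 3 days later. The groups were 5 controls given vehicle only (mice 1 to 5), and mice given BaP at a low dose of 25 mg/kg/day (5 mice, numbers 6 to 10), a middle dose of 50 mg/kg/day (4 mice, numbers 12 to 15) or a high dose of 75 mg/kg/day (5 mice, numbers 16 to 20). Each mouse had its own 2-colour array, on which lung RNA was labelled with Cy5 and a universal mouse RNA, drawn from 11 cell lines, with Cy3. Values are log2 ratios of lung over that universal RNA for 1 probe, so a ratio below 0 means a weaker signal in lung. A ratio does not rank one gene's RNA above another's, since the universal RNA holds a different amount of each. Only part of the lung was used, and nothing in the labels says whether blood had been flushed out of it.

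The T cell receptor recognises peptides held by MHC molecules and cannot signal on its own, so it is assembled with the CD3 chains, whose tails carry the activation motifs. On contact the kinase Lck, brought in by the coreceptor CD4 or CD8, phosphorylates those motifs. The kinase ZAP-70 then binds them and phosphorylates the adaptor LAT, on which the downstream signalling complex is built, while CD28 adds a costimulatory signal and CD5 restrains the response. In the lung, T cells lie in the vessel walls, the interstitium and the airway lining and are a minority of all cells.

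The arrays were of lung and showed the exposure. Sftpc, Sftpb, Scgb1a1, Ager, Cldn18 and Pecam1, markers of lung epithelium and vessels, passed background on 19 of 19 arrays. The p53 target Cdkn1a, the p21 cell cycle inhibitor, was 3.28 ± 0.23 (SE) higher on the log2 scale at the high dose than in controls (limma adjusted p = 3.35e-08). Each array had 19777 to 27279 lung spots above background. Control 5 stood apart in skeletal muscle: its mean over 5 muscle markers was 4.59 above the control mean, against -2.08 to 0.27 in the other 18 mice. Of the controls it was the highest in Cd5 and the lowest in Cd3e, Cd3g and Lat. Differences without control 5 are given for Cd5, and for Cd3e at the high dose. The arrays lay on 6 slides, each with more than 1 group.

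The promoters of 6 start sites are shown because they belong to the genes whose probes carried the results: the CD3 genes, which form the receptor complex, and Lck and Cd5, which had the lowest estimates at the high dose. The CD3 genes Cd3g, Cd3d and Cd3e are consecutive protein-coding genes on chromosome 9 in RefSeq, and Cd3g and Cd3d lie on opposite strands. Each sequence runs 5′ to 3′ on the gene's strand over 250 bases before and 50 bases after the start, from RefSeq on build GRCm38.p6, with capitals marking matches on either strand to GGAAG (a short form of the ETS motif) or TGTGG (a short form of the RUNX motif).
Cd3d, chr9:44981536-44981835, plus strand: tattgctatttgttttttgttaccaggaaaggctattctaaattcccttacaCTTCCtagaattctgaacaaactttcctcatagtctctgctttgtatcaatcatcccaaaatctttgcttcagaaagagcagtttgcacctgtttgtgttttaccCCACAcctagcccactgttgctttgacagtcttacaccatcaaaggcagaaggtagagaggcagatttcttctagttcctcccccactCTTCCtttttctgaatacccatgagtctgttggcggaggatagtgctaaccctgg
Cd3g, chr9:44980382-44980681, minus strand: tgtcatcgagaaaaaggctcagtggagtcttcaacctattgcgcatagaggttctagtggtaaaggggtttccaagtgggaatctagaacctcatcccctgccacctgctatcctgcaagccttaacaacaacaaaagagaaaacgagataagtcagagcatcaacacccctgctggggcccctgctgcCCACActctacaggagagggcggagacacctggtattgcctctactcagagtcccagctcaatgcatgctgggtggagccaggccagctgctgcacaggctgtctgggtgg
Cd3e, chr9:45009562-45009861, minus strand: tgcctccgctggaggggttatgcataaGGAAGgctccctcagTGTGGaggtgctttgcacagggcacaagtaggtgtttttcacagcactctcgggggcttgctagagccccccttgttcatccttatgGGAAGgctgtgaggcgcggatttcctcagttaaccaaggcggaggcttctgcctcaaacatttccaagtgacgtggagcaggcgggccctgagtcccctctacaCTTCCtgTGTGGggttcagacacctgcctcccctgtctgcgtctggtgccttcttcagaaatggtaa
Lck, start 1, chr4:129573592-129573891, minus strand: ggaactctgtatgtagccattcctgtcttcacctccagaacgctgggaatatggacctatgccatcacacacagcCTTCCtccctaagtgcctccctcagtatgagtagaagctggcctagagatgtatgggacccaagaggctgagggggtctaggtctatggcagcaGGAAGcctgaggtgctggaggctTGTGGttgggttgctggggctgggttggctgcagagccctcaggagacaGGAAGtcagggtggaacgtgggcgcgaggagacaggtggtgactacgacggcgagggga
Lck, start 2, chr4:129558323-129558622, minus strand: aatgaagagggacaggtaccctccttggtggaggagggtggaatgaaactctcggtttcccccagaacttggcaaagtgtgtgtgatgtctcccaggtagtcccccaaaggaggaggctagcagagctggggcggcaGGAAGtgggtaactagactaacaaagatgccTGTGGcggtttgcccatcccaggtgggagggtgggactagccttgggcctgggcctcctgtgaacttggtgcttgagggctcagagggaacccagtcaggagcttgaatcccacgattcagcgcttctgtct
Cd5, chr19:10738925-10739224, minus strand: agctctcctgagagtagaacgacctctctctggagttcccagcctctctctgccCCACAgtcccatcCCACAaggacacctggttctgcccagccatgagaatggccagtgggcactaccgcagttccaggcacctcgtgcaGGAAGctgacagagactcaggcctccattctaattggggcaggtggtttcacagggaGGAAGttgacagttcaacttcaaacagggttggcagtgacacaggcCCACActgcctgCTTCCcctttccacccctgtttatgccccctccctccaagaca

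The ETS and RUNX families are transcription factors with known roles in T cells. The Cd5 window held 3 ETS and 3 RUNX matches, the Cd3e window 3 and 2, the first Lck start 3 and 1, the second Lck start 1 and 1, the Cd3d window 2 and 1, and the Cd3g window 0 and 1. RefSeq promoters were found for 8 of the 10 genes, 11 in all, of which 9 held GGAAG and 10 held TGTGG. Over all 32851 mouse promoters of 300 bases in the same table, 71.4% held GGAAG and 55.9% held TGTGG, so short matches of this kind are common. Other forms of the ETS and RUNX motifs were not counted, so a window with 0 matches may hold them. A match is a run of letters and was not tested as a binding site.

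No T cell gene passed the threshold at any dose. At the high dose 0 of the 8 genes tested were called (limma, adjusted p under 0.05), where 4.15% of the 19315 genes tested were. At the middle dose 0 of 8 were called beside 1.08% of all genes, and at the low dose 0 of 8 beside 0.0518%. The count was also 0 of 8 for the high against the low dose (0.549% of all genes) and for the linear trend with dose (4.64%). At an unadjusted p under 0.05, 0 of 8 were lower at the low dose (2.93% of all genes), 2 of 8 at the middle dose (Cd5 and Lat; 6.06%) and 2 of 8 at the high dose (Cd5 and Lck; 7.8%). By the same measure 1 of 8 was lower for the high against the low dose (Lck; 3.3%) and 2 of 8 in the trend (Cd5 and Lck; 8.42%). No gene of the 8 had every mouse of a dose below every control, where 0.456%, 1.96% and 1.66% of all genes did at the low, middle and high dose.

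The direction of the estimates differed by dose. At the low dose 3 of 8 genes lay below the control mean (47.4% of all genes), at the middle dose 6 of 8 (50.3%) and at the high dose 8 of 8 (51.9%). For the high against the low dose 8 of 8 were below 0 (54.4%), as were 8 of 8 in the trend (52.4%). Each count of 8 of 8 includes Cd4, whose probe was close to background, at -0.001. At the high dose Cd4 lay below 0 in 5 of 12 alternatives other than leaving out 1 mouse. The median difference over the 8 genes was 0.006, -0.151 and -0.096 at the low, middle and high dose, beside 0.00781, -0.00128 and -0.00752 over all genes. All 3 comparisons use the same 5 controls and the 8 genes the same arrays, so these counts are not independent of each other. The ratios were normalized by loess, which sets the bulk of each array near 0. With each array centred on its median instead, all genes shifted by a median of 0.351 at the high dose, and the 8 T cell genes lay between 0.025 and 0.377, with Lat and Zap70 above that shift and the other 6 under it. In bulk tissue, fewer T cells and less RNA per T cell cannot be told apart.

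**Figure D1:**
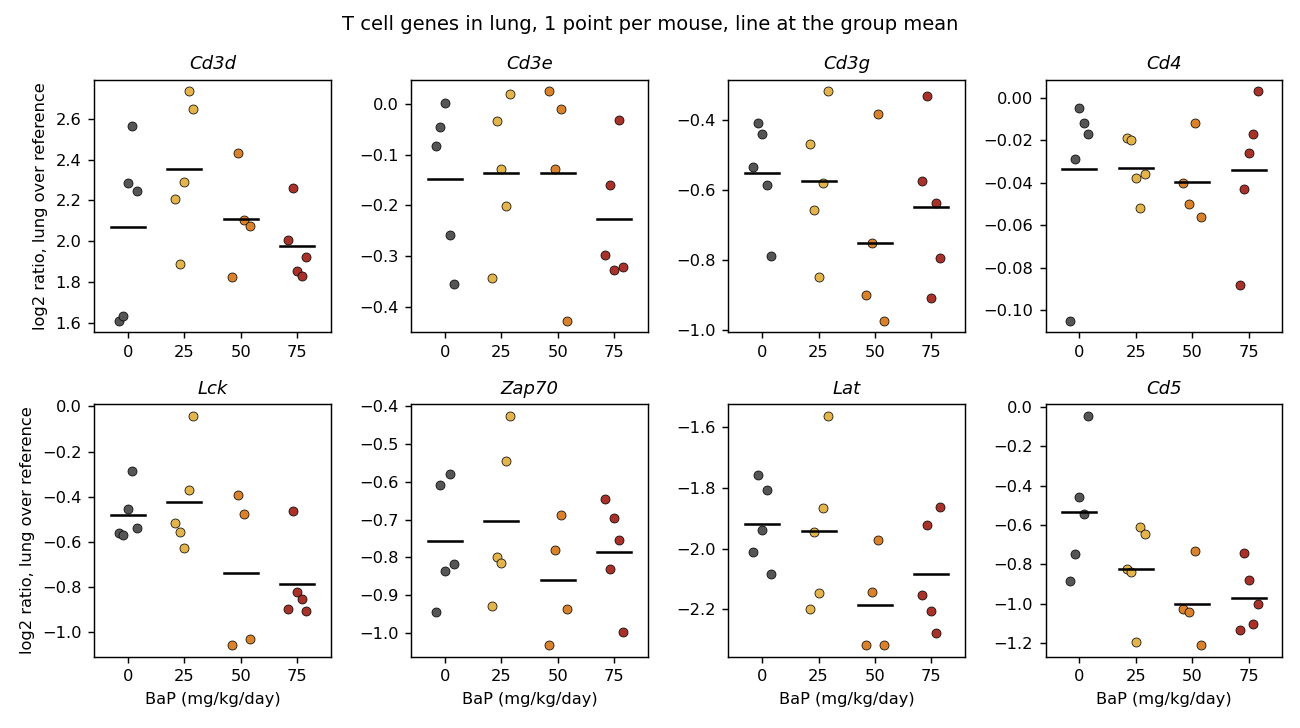
Log2 ratio of lung over universal RNA (y axis, its own scale in each panel) against BaP dose (x axis, mg/kg/day) for the 8 T cell genes tested, with 1 point per mouse and a line at each group mean. Cd5 lies between -1.13 and -0.74 at the high dose against -0.89 to -0.05 in controls, and in Lck 4 of 5 high-dose mice lie below all 5 controls.

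Cd3d encodes the delta chain of CD3, and its probe passed background on 19 of 19 arrays. Controls 1 to 5 were at 1.61, 1.63, 2.29, 2.57 and 2.25. Low-dose mice 6 to 10 were at 2.21, 1.89, 2.29, 2.73 and 2.65, middle-dose mice 12 to 15 at 1.83, 2.43, 2.10 and 2.07, and high-dose mice 16 to 20 at 2.01, 2.26, 1.85, 1.83 and 1.93. The groups overlapped, with controls 1 and 2 lower than every treated mouse and low-dose mouse 9 the highest of all. The means were 2.07 ± 0.43 in controls and 2.35 ± 0.34, 2.11 ± 0.25 and 1.98 ± 0.17 at the low, middle and high dose (SD, n = 5, 5, 4 and 5). The low-dose difference of 0.28 ± 0.18 (SE) was the highest of the 8 genes at that dose (limma adjusted p = 0.757), and the high-dose difference was -0.09 ± 0.18 (adjusted p = 0.856). Between the high and the low dose Cd3d differed by -0.38, with a 95% interval of -0.76 to 0.01 (limma adjusted p = 0.74).

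Cd3e, the epsilon chain that common T cell antibodies bind, had the estimates nearest to 0 of the CD3 genes. Controls 1 to 5 were at -0.08, -0.05, 0.00, -0.26 and -0.36. Low-dose mice ranged between -0.34 and 0.02, middle-dose mice between -0.43 and 0.03, and high-dose mice 16 to 20 were at -0.30, -0.16, -0.33, -0.03 and -0.32. All 4 groups overlapped over most of their range. The differences from controls were 0.01, 0.01 and -0.08 at the low, middle and high dose, with SEs of 0.10, 0.11 and 0.10. The 95% interval at the high dose was -0.29 to 0.13. The probe was dim, with a mean lung intensity of 43.1 units above local background, and the offset of 50 added to both channels compresses the ratios of such probes.

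Cd3g, the gamma chain, was at -0.53, -0.41, -0.44, -0.59 and -0.79 in controls 1 to 5. Low-dose mice ranged between -0.85 and -0.32, middle-dose mice 12 to 15 were at -0.90, -0.75, -0.38 and -0.97, and high-dose mice 16 to 20 at -0.57, -0.33, -0.91, -0.64 and -0.80. Low-dose mouse 8, middle-dose mice 12 and 15 and high-dose mice 18 and 20 lay below every control, and the groups overlapped otherwise. The differences were -0.02 ± 0.13, -0.20 ± 0.13 and -0.10 ± 0.13 (SE) at the low, middle and high dose, with limma adjusted p = 0.988, 0.572 and 0.757. The probe passed background on 18 of 19 arrays.

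Of the coreceptors only Cd4 was measured, and close to background. Cd4 marks helper T cells and occurs on some macrophages. Its brighter probe, printed 10 times on each array, passed background in 2 of 5 controls and in 3 of 5, 1 of 4 and 4 of 5 mice at the low, middle and high dose. Its ratio lay between -0.105 and 0.003 in the 19 mice, and its differences from controls were 0.00, -0.01 and 0.00, with a high-dose 95% interval of -0.11 to 0.10. At a mean lung intensity of 20.6 units the offset of 50 holds ratios near 0, and that interval covers only the compressed scale. A second Cd4 probe passed background on 0 of 19 arrays. The Cd28 probe had mean lung intensities of 8.18 in controls and 8.36, 8.05 and 9.01 at the low, middle and high dose, none of them well above background, so no difference was taken from it.

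Of the kinases, Lck starts receptor signalling. Controls 1 to 5 were at -0.56, -0.57, -0.45, -0.28 and -0.54. Low-dose mice 6 to 10 were at -0.52, -0.55, -0.63, -0.37 and -0.04, middle-dose mice 12 to 15 at -1.06, -0.39, -0.48 and -1.03, and high-dose mice 16 to 20 at -0.90, -0.46, -0.82, -0.85 and -0.91. At the high dose 4 of 5 mice lay below all controls and mouse 17 lay among them, while at the middle dose mice 12 and 15 lay below all controls and mice 13 and 14 did not. At the low dose mouse 8 lay below all controls and mouse 10 was the highest of all 19. The means were -0.48 ± 0.12 in controls and -0.42 ± 0.23, -0.74 ± 0.35 and -0.79 ± 0.18 at the low, middle and high dose (SD).

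The Lck difference from controls was 0.06 ± 0.14 (SE), -0.26 ± 0.15 and -0.31 ± 0.14 at the low, middle and high dose, with limma adjusted p = 0.961, 0.486 and 0.254. The middle-dose value was -0.15 without mouse 12 and -0.16 without mouse 15. A two-sided exact permutation test of the high dose against controls gave an unadjusted p = 0.032, where the smallest possible is 0.0079. Between the high and the low dose Lck differed by -0.37 ± 0.14 (unadjusted p = 0.0153, limma adjusted p = 0.495). Within the 4 slides shared by both groups, the Lck difference at the high dose was -0.28, -0.01, -0.54 and -0.35. With slide as a fixed block it was -0.23 ± 0.11 (limma adjusted p = 0.201). The lung channel alone differed by -0.28 and the universal RNA channel by -0.03.

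Zap70, the kinase that docks on phosphorylated CD3 chains, had overlapping values in all groups. Controls 1 to 5 were at -0.95, -0.61, -0.84, -0.58 and -0.82, and high-dose mice 16 to 20 at -0.65, -0.83, -0.70, -0.76 and -0.998. Low-dose mice ranged between -0.93 and -0.43 and middle-dose mice between -1.03 and -0.69. The differences were 0.06, -0.10 and -0.03 at the low, middle and high dose, with limma adjusted p = 0.946, 0.774 and 0.933. The 95% interval at the high dose was -0.25 to 0.19.

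The adaptor Lat, on which the signalling complex is built, was at -2.01, -1.76, -1.94, -1.81 and -2.09 in controls 1 to 5. Low-dose mice ranged between -2.20 and -1.56, middle-dose mice 12 to 15 were at -2.32, -2.14, -1.97 and -2.32, and high-dose mice 16 to 20 at -2.15, -1.92, -2.21, -2.28 and -1.86. Below all controls lay 2 of 5, 3 of 4 and 3 of 5 mice at the low, middle and high dose, and the groups overlapped. The differences were -0.02 ± 0.12, -0.27 ± 0.12 and -0.17 ± 0.12 (SE), with limma adjusted p = 0.986, 0.373 and 0.515. The exact permutation p at the middle dose was 0.048, two-sided and unadjusted. At that dose the lung channel alone differed by -0.06 and the universal RNA channel by 0.05, each normalized apart from the ratio. Within the 3 slides that hold both a middle-dose mouse and a control, Lat was lower on 3 of 3, at -0.31 to -0.06.

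The inhibitory receptor Cd5, which restrains receptor signalling and is also carried by a subset of B cells, had the lowest estimate of the 8 genes at all 3 doses. Controls 1 to 5 were at -0.89, -0.75, -0.46, -0.54 and -0.05. Low-dose mice 6 to 10 were at -0.82, -0.84, -1.19, -0.61 and -0.65, middle-dose mice 12 to 15 at -1.03, -1.05, -0.73 and -1.21, and high-dose mice 16 to 20 at -1.13, -0.74, -0.88, -1.10 and -1.0. All treated mice, 5 of 5, 4 of 4 and 5 of 5, lay below the control mean of -0.54, which control 5 at -0.05 raised. The groups still overlapped: controls 1 and 2 were lower than the highest mice of the middle and high dose, and control 5 was the highest of all 19.

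The Cd5 difference from controls was -0.29 ± 0.14 (SE), -0.47 ± 0.15 and -0.44 ± 0.14 at the low, middle and high dose, with limma adjusted p = 0.657, 0.159 and 0.0969. The slope over the 19 arrays was -0.15 ± 0.05 per 25 mg/kg/day (adjusted p = 0.0725). Two-sided exact permutation tests, not adjusted over genes and doses, gave p = 0.14, 0.048 and 0.04. Between the high and the low dose Cd5 differed by -0.15, with a 95% interval of -0.45 to 0.15. At the high dose the lung channel alone differed by -0.31 and the universal RNA channel by -0.01.

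Single mice moved the Cd5 value. Without control 5, the mouse with high muscle markers, the high-dose difference was -0.31 (limma adjusted p = 0.191) and the low-dose difference -0.16. In that fit the middle-dose difference was -0.35 (limma adjusted p = 0.241) and the slope -0.11 (adjusted p = 0.14). The part of the muscle in these values was not tested. Without control 1 the high-dose difference was -0.52 and just passed the threshold (adjusted p = 0.0499). The slope passed without low-dose mouse 8 (-0.16, adjusted p = 0.0389) or high-dose mouse 17 (-0.17, adjusted p = 0.0407). Within slides, the high-dose difference was -0.36, -0.29, -0.34 and -0.11, and the middle-dose difference 0.01, -0.14 and -1, the last against control 5. With slide as a fixed block Cd5 was at -0.33 ± 0.12 at the high dose (adjusted p = 0.0954). With slide as a random block the slope was -0.13 ± 0.04 and passed (adjusted p = 0.0374).

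**Figure D2:**
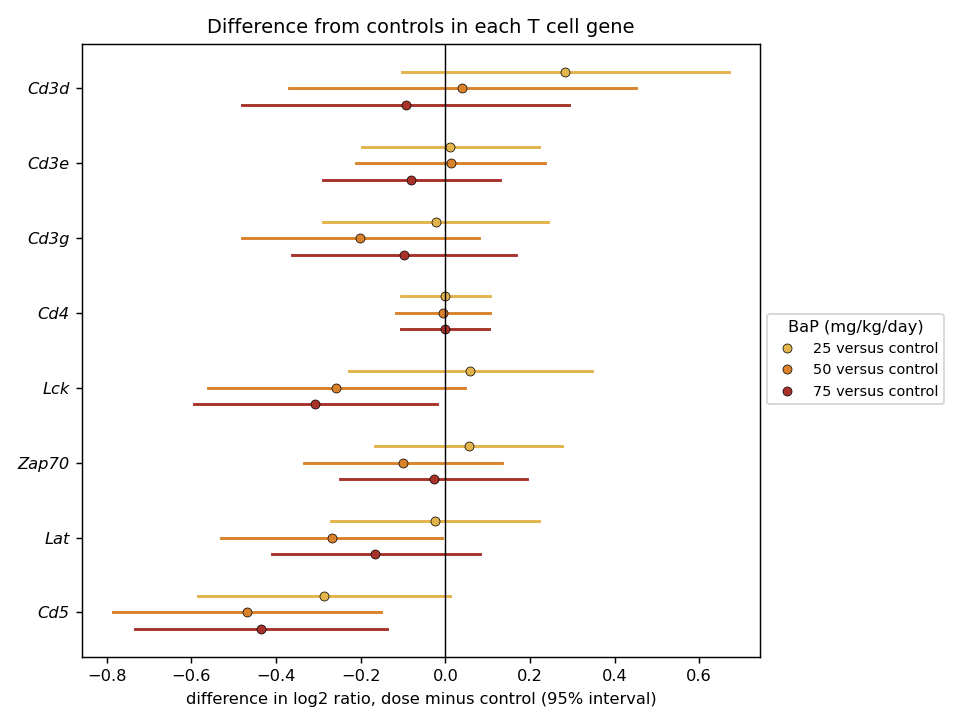
Difference in log2 ratio from the 5 controls (x axis) for each T cell gene (y axis) at 25, 50 and 75 mg/kg/day, with limma's 95% interval as a line. Intervals below 0 before adjustment are those of Cd5 at 50 and 75, Lck at 75 and Lat at 50 mg/kg/day, and all others include 0.

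Some of the genes varied together between mice of the same dose, to differing degrees. Deviations from the dose-group means were correlated over the 19 mice as a description, in which the genes share arrays, slides and RNA quality. Lck followed the mean of the 7 other genes most closely (Pearson r = 0.87, Spearman rho = 0.83), and no other of 19283 genes followed that mean as closely as Lck did. Without the 2 arrays farthest from the median r was 0.81, and over all 19 arrays with slide means removed it was 0.69. Lat (r = 0.67), Zap70 (0.61), Cd3g (0.58) and Cd3d (0.50) followed the mean of their 7 partners less closely, and with slide means removed they were at 0.54, 0.65, 0.68 and 0.57. Cd5 was at 0.48 but at 0.01 with slide means removed, and Cd3e was at 0.17 and -0.16. The dim Cd4 probe was at 0.21 and -0.13. Before slide means were removed, 1.38% of the 19283 genes followed the mean of the 7 partners at least as closely as Lat did. That share was 1.76% for Zap70, 4.11% for Cd3d, 5.06% for Cd3g, 7.96% for Cd5, 33.3% for Cd4 and 38.6% for Cd3e.

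Of the 28 gene pairs 24 had a positive r, with a median of 0.32, and with slide means removed 17 had one, with a median of 0.16. Pairs of other genes were not counted, so these counts stand without a background. The highest pair was Lck with Lat (0.68), then Lck with Cd3g (0.67, and 0.80 with slide means removed) and Lck with Cd3d (0.65). The lowest was Cd3d with Cd3e at -0.21, which encode chains of the same complex and are neighbours on chromosome 9. The mean of the 8 genes relative to controls was lowest in middle-dose mice 15 and 12 (-0.32 and -0.27) and highest in low-dose mouse 10 (0.25). At the high dose 4 of 5 mice lay between -0.21 and -0.18 and mouse 17 at 0.02, while controls ran between -0.14 and 0.11.

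**Figure D3:**
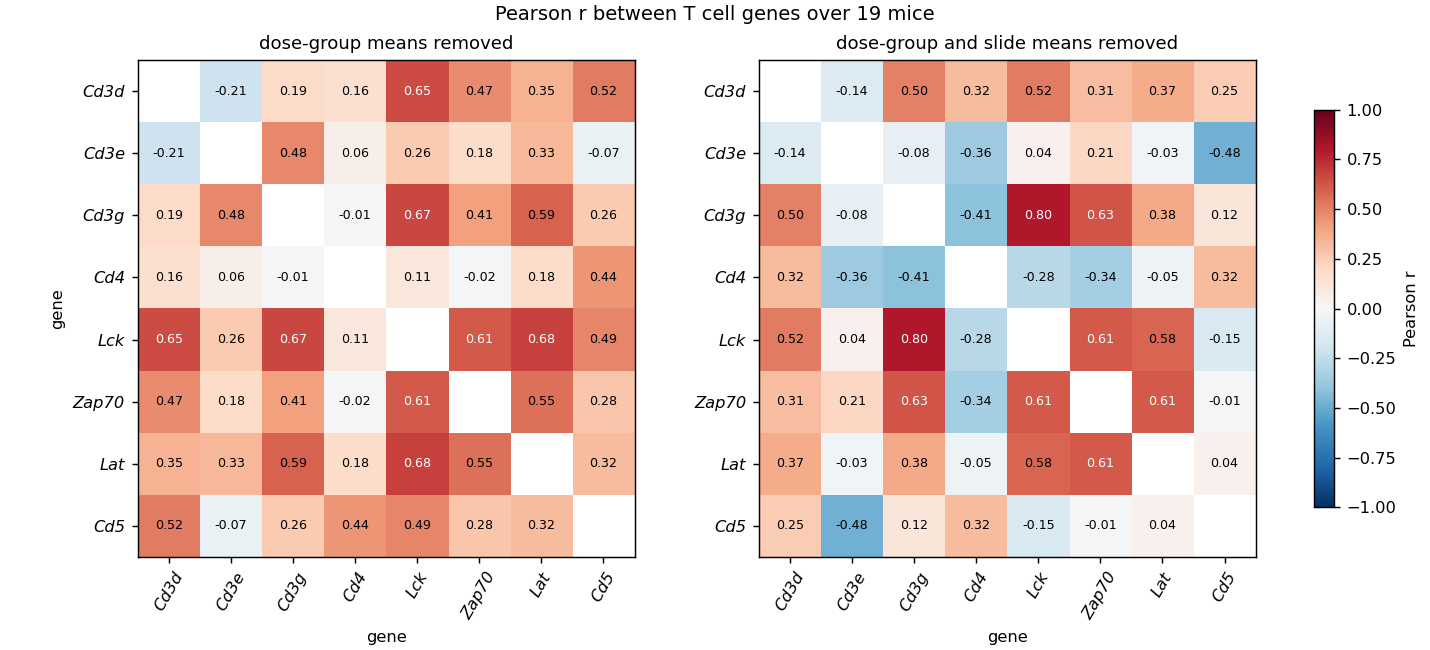
Pearson r between T cell genes (both axes) over 19 mice, after dose-group means were removed (left) and after dose-group and slide means were removed (right), with r printed in each cell. Lck is positive with Lat, Zap70, Cd3g and Cd3d in both panels, while Cd3e with Cd5 is at -0.07 on the left and -0.48 on the right.

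Of the 10 genes or transcripts most like the mean of the 8 T cell genes, by the same r over 19 mice, 7 had a symbol: Pafah1b3 (0.853), Ncmap (0.828), Fam13a (0.805), Nek4 (0.802), Skap1 (0.80), Jade1 (0.798) and Gtf2h1 (0.796). Skap1 is an adaptor downstream of the T cell receptor. Pafah1b3, a subunit of a platelet-activating factor acetylhydrolase, was called at the high dose (-0.44, limma adjusted p = 0.0274), and the other 9 were not. Of the 5 most like Cd3e alone, 1 had a symbol, Lef1 (0.757), a transcription factor of T cells.

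Other genes of the pathway were read from lists. Of 27 signalling partners tested, 19 lay below 0 at the high dose (51.9% of all genes), with a median of -0.093 beside -0.00752 over all genes, and 1 was called (4.15% of all genes), which is near the background. Rasgrp1, which couples the receptor to Ras, was at -1.04 to -0.84 at the high dose against -0.67 to -0.52 in controls, with no overlap, and fell by 0.35 ± 0.10 (SE; limma adjusted p = 0.0454). A second Rasgrp1 probe was at 0.08, so its direction depends on the probe. With median centring the first was at 0.05, beside the shift of 0.351 of all genes under that setting. With the mean of its probes Rasgrp1 was at -0.13 and from the lung channel alone at -0.11 (limma adjusted p = 0.35 and 0.602). The call held in 6 of 19 fits that each left out 1 mouse, with differences of -0.37 to -0.32 and adjusted p up to 0.123, and it ended without any 1 of the 5 controls, of the 5 high-dose mice, of low-dose mice 7 and 10 or of middle-dose mouse 13. In the linear trend 2 of 27 partners were called, near the 4.64% of all genes: Rasgrp1 at -0.13 and Ptprcap, which binds the phosphatase CD45, at -0.12 per 25 mg/kg/day (adjusted p = 0.0149 and 0.0381). With median centring Rasgrp1 and Ptprcap were at 0 and 0.07, beside a shift of 0.106 of all genes in the trend. From the lung channel alone the trends of Rasgrp1 and Ptprcap were -0.06 and -0.11 and did not pass (limma adjusted p = 0.389 and 0.0666). With the mean of its probes the Rasgrp1 trend was -0.05 (adjusted p = 0.236). The Ptprcap call ended without high-dose mouse 16 or 18 or control 2, 3 or 4, where adjusted p was up to 0.116. The kinase Txk was at -0.34 at the high dose and did not pass (adjusted p = 0.17), and at the low and middle dose 0 of 27 were called.

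Transcription factors of T cells had 9 of 10 below 0 at the high dose, with a median of -0.154, and 2 called in opposite directions, where 51.9% of all genes lay below 0 and 4.15% were called. Klf2, a factor of resting T cells and of endothelium, was at -0.21 to 0.22 at the high dose against 0.32 to 0.97 in controls and fell by 0.53 ± 0.12 (SE; limma adjusted p = 0.0134). Its second probe was at -0.44 and its call held in 19 of 19 fits without 1 mouse, but with median centring it was at 0.38 (adjusted p = 0.439), beside the shift of 0.351 of all genes. In the authors' deposited table it was at -0.28, in the lung channel alone at -0.29 and with an offset of 16 at -0.40, and none passed (limma adjusted p = 0.304, 0.434 and 0.105). In the trend Klf2 was also called, at -0.18 per 25 mg/kg/day (adjusted p = 0.00402). That call was lost in the deposited table (-0.10, adjusted p = 0.194), in the lung channel alone (-0.11, 0.343) and with an offset of 16 (-0.14, 0.0536). With median centring the trend was at 0.10 (adjusted p = 0.513), beside a shift of 0.106 of all genes. Zbtb7b, the factor of the helper lineage, which other cells also use, was at -0.17 to 0.07 against -0.55 to -0.24 and rose by 0.37 ± 0.08 (adjusted p = 0.009). That call held in 19 of 19 fits without 1 mouse and ended without the 4 arrays marked by the scanner's quality report (0.33, adjusted p = 0.0579). With median centring Zbtb7b was at 0.88, beside the shift of 0.351, and did not pass (adjusted p = 0.0691). Against the low dose Zbtb7b was higher by 0.36 ± 0.08 (adjusted p = 0.0364), a call that ended without low-dose mouse 6, 7, 8 or 9 or high-dose mouse 16, 17, 18 or 20 (adjusted p up to 0.143). The call against the low dose also ended in the lung channel alone and with median centring (limma adjusted p = 0.286 and 0.645). An offset of 16, or leaving out the 4 marked arrays, ended it too (limma adjusted p = 0.0941 and 0.0529). Tbx21, the factor of type 1 helper and natural killer cells, had the lowest estimate of the list at -0.85 ± 0.33 and did not pass (adjusted p = 0.174), with controls spread between 0.51 and 3.11.

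Costimulatory and inhibitory receptors had 0 of 7 called at the high dose, with 5 below 0 (51.9% of all genes) and a median of -0.034, and Pdcd1, the receptor PD-1, passed background on only 2 of 5 high-dose arrays and 1 of 5 control arrays. Surface and homing genes had 0 of 13 called and 7 below 0, near the 51.9% of all genes, with a median of -0.04, in which the chemokine receptor Cxcr6 was at -0.45 (adjusted p = 0.0946) and the egress receptor S1pr1 at 0.47 (adjusted p = 0.255). Of 5 ligands on other cells 1 was called, where 4.15% of all genes were: Icam1, the adhesion partner of the integrin LFA-1 on endothelium and epithelium, rose by 0.66 ± 0.18 (adjusted p = 0.0381). Icam1 was at 2.87 to 4.02 at the high dose against 2.52 to 3.17 in controls, which overlap. Its call ended without high-dose mouse 16, 17, 18 or 19 or control 1, 2 or 4, with values of 0.55 to 0.84 over all 19 such fits. In the trend Icam1 was called at 0.20 per 25 mg/kg/day (adjusted p = 0.0428), and in 7 of 19 such fits. Over 32 alternatives, those fits among them, the Icam1 call held in 19 at the high dose and 14 in the trend. At the high dose it ended, for example, in the deposited table and without background subtraction (limma adjusted p = 0.0516 and 0.0622). An offset of 16 and processed signals ended it too (limma adjusted p = 0.0751 and 0.0653). Of 6 genes listed for thymocytes, read for thymus carried along with the lung, Rag1 and Rag2 passed background on 0 of 19 arrays and Ptcra and Arpp21 on 1. Only Dntt and Cd1d1 were tested. Dntt, the terminal transferase of developing lymphocytes, was at -1.34 to -1.05 at the high dose against -0.98 to -0.32 in controls and fell by 0.46 ± 0.12 (adjusted p = 0.0369). With median centring Dntt was at -0.09, beside the shift of 0.351 of all genes, and did not pass (limma adjusted p = 0.684). The Dntt call ended without high-dose mouse 16, 18, 19 or 20 or control 1, 2, 3 or 4 (adjusted p up to 0.104). It also ended in the deposited table and in the lung channel alone (limma adjusted p = 0.0823 and 0.0635). From processed signals and without the 4 arrays marked by the quality report it was lost as well (limma adjusted p = 0.121 and 0.124).

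**Figure D4:**
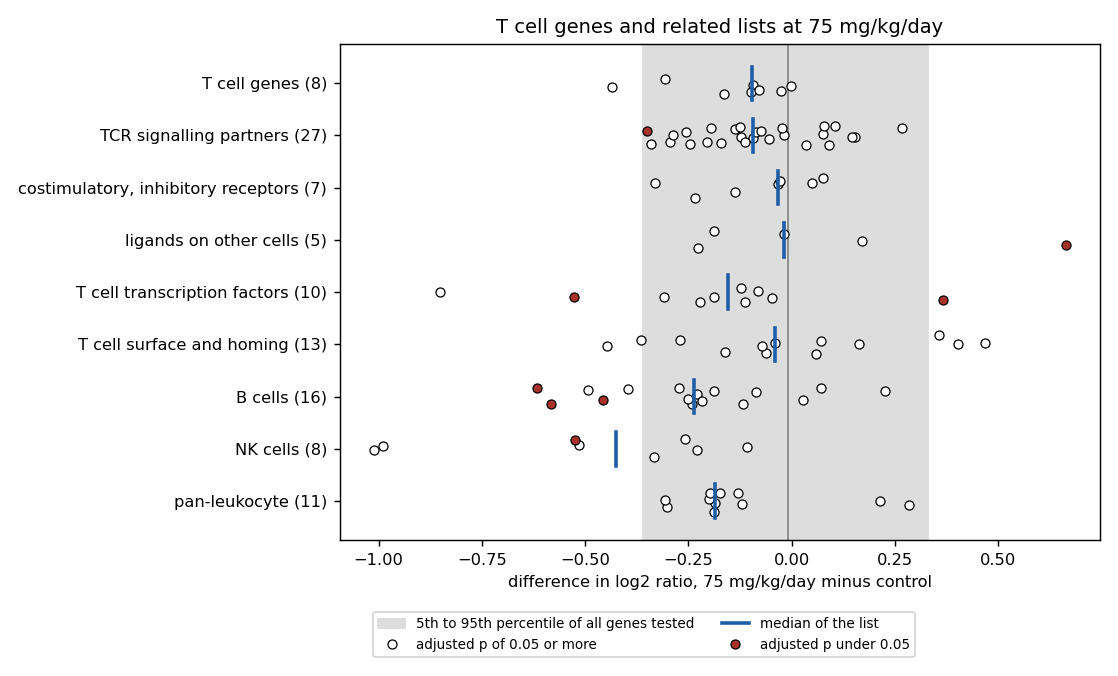
Difference in log2 ratio at 75 mg/kg/day minus control (x axis) for each gene tested of the lists named on the y axis (number of genes in brackets), with red points past the threshold, blue bars at list medians and a grey band over the 5th to 95th percentile of all genes (-0.36 to 0.33). The T cell genes lie between -0.44 and 0.00 with none past the threshold.

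Genes of other lymphocytes were in part lower at the high dose. There 3 of 16 B cell genes were called lower and 13 lay below 0 (median -0.236), and 1 of 8 natural killer cell genes was called lower and 8 lay below 0 (median -0.425), next to 1.51% of all genes called lower and 51.9% of all genes below 0, and 0 called and 8 below 0 among the 8 T cell genes (median -0.096). Those 8 T cell genes include Cd4 at -0.001. Of the B cell genes called, Blnk was at -0.58, Cd79b at -0.62 and Tnfrsf13c at -0.46 (limma adjusted p = 0.019, 0.0271 and 0.0367). With median centring these genes were at 0.18, 0.11 and -0.26, each under the shift of 0.351 of all genes in that setting. Their calls held in 27, 25 and 21 of 32 alternatives. The natural killer gene called, Klrb1c, passed background on 1 of 5 high-dose arrays and 5 of 5 control arrays, so its high-dose level is mostly at background. The largest natural killer differences, Ccl5 at -1.01 and Gzma at -0.99, did not pass at the high dose (limma adjusted p = 0.0556 and 0.133). In the trend 2 of 8 natural killer genes were called lower, Ccl5 and Klrb1c (limma adjusted p = 0.0228 and 0.0145), beside 4.64% of all genes called in either direction. Whether the T cell genes differed from those lists was not tested. Of 11 pan-leukocyte genes 0 were called and 9 lay below 0 (median -0.185), and their mean relative to controls ran between -0.29 and -0.02 at the high dose against -0.31 to 0.29 in controls. Over the 19 mice the mean deviation of the T cell genes had r = 0.789 (rho = 0.767) with Dntt and Cd1d1, the 2 genes tested of the thymocyte list. The rest of that list passed background on 0 or 1 arrays, so this r does not speak for thymocyte markers as a set. For other lists r was 0.577 with the T cell factors (rho 0.544), 0.482 with the ligands (0.46), 0.468 with the signalling partners (0.411), 0.431 with natural killer genes (0.472), 0.424 with pan-leukocyte genes (0.423), 0.406 with surface and homing genes (0.425), 0.247 with costimulatory and inhibitory receptors (0.221), 0.291 with B cell genes (0.30), 0.003 with alveolar macrophage genes (0.011), -0.48 with the p53 targets (-0.442) and -0.585 with the 6 lung markers (-0.549). The part of thymus carried along, or of a changing mix of lung and blood cells, in the results was not tested.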

How the data were processed

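Deposited spot intensities came from the scanner software, named in the file headers as Feature Extraction (version 10.7.3.1), and covered 45018 spots on each of 19 arrays. The authors also deposited a table of log2 ratios, which served as an alternative. Its columns followed the loess ratios computed here without background subtraction (r 0.995 to 0.998, slope 0.991 to 0.995), so it lay close to that scale. They run in the direction lung over universal RNA, with medians of -0.0526 to -0.0333. The authors' own normalization steps were not tested. Here, median spot and local background intensities were corrected with normexp (offset 50) and normalized by loess within each array in limma 3.58.1 (R 4.3.3), with outlier-flagged spots (0.29%) left out and 0 spots saturated. Probes above background in lung on 4 or more arrays were kept, with the brightest probe per gene, and 24 values were missing. Of 41174 probes, 23374 were named through RefSeq accessions. One limma fit covered all 19315 genes and 4 groups, with Benjamini-Hochberg adjustment over all of them and a threshold of 0.05, and a separate fit gave the linear trend. The steps were tested on simulated data. Each of the 8 genes was also compared with controls at each dose by a two-sided exact permutation test, without adjustment for the number of tests. The permutation tests not printed above gave p = 0.15 to 0.99. Of the 5 mice per group in the design text, 4 arrays of the middle dose were analysed here. Labels name separate mice, and the number of arrays limits the precision. The genes and lists were chosen with earlier results of these data known. Named genes were the 10 members, listed genes past the threshold, the largest differences per list, and the 10 genes most alike. Alternatives changed background correction, normalization, channel, filter, probe choice, slide block and single arrays.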

Additional observations from a re-analysis of the deposited data

Results flagged for a closer look

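Of 32 gene and group combinations checked, 2 had a mouse far from the others of its group, where chance flags about 1 in 20. In Lck, high-dose mouse 17 was at -0.464, with its gap to the nearest of the others at 0.812 of the group's range. Without it the high-dose difference from controls was -0.388 (limma adjusted p = 0.137), in place of -0.307. In Cd4, whose probe was near background, control 1 was at -0.105, with a gap of 0.76 of the range.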

How the results depend on the processing

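Mouse numbers pair no samples, since none occurs in more than 1 group, and slides shared between groups were fitted as a block. The count of T cell genes called was 0 in each comparison, except 1 (Cd5) in the trend with slide as a random block and, over fits without 1 mouse, 0 to 1 at the high dose and in the trend. Among values under alternatives, 1161 kept direction and side of the threshold, 105 turned direction and 4 newly passed. Median centring shifts all genes by 0.148, 0.136 and 0.351 at the low, middle and high dose and 0.106 in the trend, and under it these turned: at the low dose Cd3g 0.089 and Lat 0.213; at the middle dose Cd4 0.031 and Zap70 0.076; at the high dose Cd3d 0.219, Cd3e 0.123, Cd3g 0.232, Cd4 0.025, Cd5 0.029, Lat 0.377, Lck 0.227 and Zap70 0.377; high against low Cd3e 0.04, Cd3g 0.143, Cd5 0.112, Lat 0.163 and Zap70 0.158; in the trend Cd3d 0.045, Cd3e 0.036, Cd3g 0.058, Cd4 0.007, Lat 0.094, Lck 0.042 and Zap70 0.102. From the lung channel alone they were Cd3g 0.066 and Cd4 -0.042 (low), Cd3d -0.113 and Zap70 0.026 (middle), Cd4 0.009 and Zap70 0.075 (high), Cd4 0.051 (high against low), and Cd3e 0.001, Cd4 0.004 and Zap70 0.016 (trend). From the scanner's processed signals they were Cd3e -0.07, Cd3g 0.197, Cd4 -0.003 and Lat 0.094 (low), Cd3d -0.118 and Cd3e -0.154 (middle), Cd4 0.065 (high), 0.068 (high against low) and 0.015 (trend). From the deposited table they were Cd3e -0.06 (low) and -0.073 (middle), and Cd4 0.028 (high), 0.007 (high against low) and 0.006 (trend). Without background subtraction they were Cd3e -0.091 (low) and -0.073 (middle), and Cd4 -0.001 (low), 0.005 (high) and 0.005 (high against low), and with an offset of 16 Cd4 -0.003 (low). Without the 4 arrays marked by the quality report Cd3e was at 0.083 (low) and Cd4 at -0.008 (trend), unturned, and those turned were Cd3g 0.02, Cd4 -0.014 and Zap70 -0.034 (low) and Cd3e 0.015 (high). With slide as a fixed block Cd4 was at 0.002 (middle), 0.006 (high) and 0.001 (trend), and as a random block at 0.003 (high) and 0 (trend). The cause of these turns was not tested. Over fits without 1 mouse the ranges that crossed 0 were, at the low dose, Cd3e -0.04 to 0.063, Cd3g -0.087 to 0.045, Cd4 -0.018 to 0.008, Lat -0.119 to 0.039, Lck -0.036 to 0.11 and Zap70 -0.014 to 0.111; at the middle dose Cd3d -0.074 to 0.164, Cd3e -0.041 to 0.11 and Cd4 -0.024 to 0.001; at the high dose Cd3d -0.208 to 0.03, Cd4 -0.019 to 0.013 and Zap70 -0.074 to 0.026; and Cd4 -0.01 to 0.012 (high against low) and -0.006 to 0.003 (trend). Cd3e reached -0.132 at the high dose without control 5. Cd3g and Cd4 drop out when all 19 arrays must pass background. Counts of all genes called at the high dose were 801, against 1451 from processed signals and 529 with median centring. Cd3e, Cd4 and Cd28 are dim, so differences in them were hard to detect.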
